A study of Mus musculus with 6 samples.

Results

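The nesprin, SUN and torsin genes of the nuclear envelope were followed in brain RNA of mice that overexpressed the human long non-coding RNA *AP1AR-DT* (AP1AR-DT OE mice) and of control mice. The set holds 9 genes of the 52390 listed, taken by name: the nesprins *Syne1*, *Syne2* and *Syne3*, the SUN genes *Sun1* and *Sun2*, the torsins *Tor1a* and *Tor1b*, and the torsin cofactors *Tor1aip1* and *Tor1aip2*. *Syne1* and *Tor1b* were selected on their difference between the groups in earlier results of these same libraries, and the other 7 were chosen by gene family. The differences of the 9 genes between the groups are therefore given as a description. All 9 genes were part of the fit across all genes, but passing its thresholds is no independent evidence for genes chosen on the same contrast, and no *P* is given for them.

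All 6 animals were male C57BL/6 mice of wild-type genotype, injected at the age of 8 weeks in the medial prefrontal cortex with a recombinant adeno-associated virus. In the 3 AP1AR-DT OE mice the virus carried *AP1AR-DT*, named AC109347.1 in the labels, and the 3 control mice received an empty vector. The human synapsin I promoter drives expression in neurons, so glia and vessel cells of the same tissue were not its target. The age at tissue collection is not given in the sources used here, and the tissue is called brain in the labels, prefrontal cortex in the study's results and cortical tissue in its methods. A human transcript has no row in a table of mouse genes, so no level of *AP1AR-DT* was at hand as a check of which mice received it.

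Nesprins and SUN proteins together form the LINC complex, the bridge that ties the nucleus to the cytoskeleton. Nesprins span the outer nuclear membrane, reach actin or microtubule motors in the cytoplasm and end in a short tail, the KASH peptide, inside the lumen between both nuclear membranes. SUN proteins span the inner nuclear membrane, hold the KASH peptide on the lumenal side and touch the lamina on the other. Torsins are ATPases of the AAA+ family in that lumen and in the endoplasmic reticulum. They are active only with a membrane-bound cofactor, LAP1 from *Tor1aip1* at the inner nuclear membrane or LULL1 from *Tor1aip2* in the endoplasmic reticulum. In brain the LINC complex moves nuclei of migrating neurons, and a mutation of human *TOR1A* causes early-onset dystonia, a movement disorder. Mice without *Tor1a* form blebs in the nuclear envelope of neurons, and torsinB, the product of *Tor1b*, is known to cover for torsinA in tissues where it is abundant.

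The lumenal tail that joins a nesprin to a SUN protein is alike in the 3 nesprins. The coding bases that end just before each stop codon are identical in part. They are written 5′ to 3′ from the GRCm38 genome, on the minus strand at 10:5022010-5022069 for *Syne1*, on the plus strand at 12:76109982-76110041 for *Syne2* and on the minus strand at 12:104932168-104932224 for *Syne3*. Capitals mark the 39 bases that are identical in all 3 genes, and the stretch of *Syne3* is 57 bases long, 1 codon shorter than the 60 bases of the others.
Syne1: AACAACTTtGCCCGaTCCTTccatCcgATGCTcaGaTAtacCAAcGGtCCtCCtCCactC
Syne2: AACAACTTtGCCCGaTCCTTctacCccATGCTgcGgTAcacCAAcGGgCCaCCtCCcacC
Syne3: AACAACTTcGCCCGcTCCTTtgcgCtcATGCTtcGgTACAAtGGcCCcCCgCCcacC

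The torsins share the Walker A motif, the loop that holds ATP, and its coding bases show how alike and how separable both genes are. They lie on the minus strand at 2:30967207-30967230 for *Tor1a* and on the plus strand at 2:30953877-30953900 for *Tor1b*, and capitals mark the 18 of 24 bases that are identical.
Tor1a: GGgTGGaCgGGCACcGGCAAaAAc
Tor1b: GGcTGGgCtGGCACgGGCAAgAAt
Over the aligned coding sequence 703 of 993 bases (70.8%) were identical between *Tor1a* and *Tor1b*. No stretch of 100 bases of the longest transcript of either gene occurred in a transcript of any other gene, so reads of that length could be assigned to 1 of the pair. The same alignment of coding sequences gave 58.0% identity for *Sun1* against *Sun2* and 60.4% for *Tor1aip1* against *Tor1aip2*. The search for 100-base stretches found 10.859% of those of *Tor1aip1* in *Tor1aip2* and 4.237% of those of *Tor1aip2* in *Tor1aip1*. Of the stretches of *Sun2*, 0.881% occurred in *Gm16575*.

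The 9 genes differ widely in size. *Syne1* (10:5020917-5551482, minus strand) and *Syne2* (12:75818134-76110926, plus strand) encode giant proteins of 8799 and 6874 residues, and their longest transcripts, 27908 and 21704 bases, ranked 6 and 11 in length among 14023 genes. *Syne3* (12:104929933-105009809, minus strand) encodes 975 residues. *Sun1* (5:139200637-139249840, plus strand) encodes 913 residues and *Sun2* (15:79724070-79742536, minus strand) 731. *Tor1a* (2:30960627-30967933, minus strand) and *Tor1b* (2:30952959-30959015, plus strand) encode 333 and 336 residues and are neighbours on chromosome 2, with their 3′ ends facing each other 1611 bases apart. *Tor1aip1* (1:156004599-156036480, minus strand) and *Tor1aip2* (1:156035403-156068861, plus strand) lie on opposite strands and share 699 exon bases, which are 12.93% of the exon bases of *Tor1aip1* and 7.583% of those of *Tor1aip2*. The use of strand in counting is not given in the sources used here, so reads from the shared bases of these 2 genes cannot be told apart.

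The libraries held 42061721 to 54668294 counts, and the 9 genes all passed the filter on low counts that left 21844 genes. The study's methods give a lower number of paired-end reads per sample, so a count need not be a sequenced fragment. Levels are given as normalized CPM, in which edgeR's TMM factors put the libraries on 1 scale. The libraries of AP1AR-DT OE mice are called OE A, OE B and OE C, since their columns do not say which mouse they are. The mitochondrial share of counts was 9.86%, 7.2% and 7.63% in control mice and 6.67%, 5.75% and 6.8% in OE A, OE B and OE C, so the groups lay apart, and its part in the results was not tested. Some libraries stood apart in markers of other brain regions. The summed level of 10 choroid plexus genes was 4070 CPM in control 3 and 54.2 to 80.5 CPM in the other 5 libraries. That of 10 hypothalamus genes was 693 CPM in control 2 and 28.0 to 92.1 CPM in the others, that of 6 thalamus genes was 689 CPM in control 3 and 121 to 213 CPM in the others, and that of 6 oligodendrocyte genes was 10600 CPM in control 3 and 5050 to 6430 CPM in the others. The 7 striatum genes ranged from 231 CPM in control 2 to 1810 CPM in OE A, and the 6 markers of excitatory neurons from 1100 CPM in control 2 to 2830 CPM in OE B. The 6 markers shared by all neurons were abundant in every library, at 3550 to 3940 CPM in control mice and 3330 to 3730 CPM in AP1AR-DT OE mice. In such bulk tissue fewer cells of a type and less RNA per cell cannot be told apart.

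In control mice the order of levels per transcript length ran from the torsin *Tor1a* to the short nesprin *Syne3*. The order depends on the 1 transcript length used for each gene, and which transcripts were in use was not measured. By counts alone *Tor1b* was above *Tor1a* in every control library, at a ratio of 1.11 to 1.31. *Tor1a* led with 19.7 ± 2.2 CPM per kilobase of its longest protein-coding transcript (SD, n = 3), and its values lay above those of every library of the next gene. *Tor1aip2* (13.2 ± 1.67), *Sun1* (13.1 ± 2.55) and *Tor1aip1* (12.8 ± 0.914 CPM per kilobase) followed with values that overlapped between neighbours. *Tor1b* had 10.7 ± 0.51, *Sun2* 9.31 ± 0.786, *Syne1* 7.06 ± 0.467, *Syne2* 0.997 ± 0.0411 and *Syne3* 0.527 ± 0.294 CPM per kilobase, and each of these lay apart from its neighbours. *Syne1* was thus the most abundant nesprin in this tissue also per length. In AP1AR-DT OE mice *Sun2* stood at 13.1 ± 2.59 and *Tor1b* at 3.17 ± 0.44 CPM per kilobase, so *Sun2* was above *Tor1aip1* (10.6 ± 1.17) by its mean and *Tor1b* was below *Syne1* (5.09 ± 0.778).

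Among the 9 genes, *Tor1b* and *Syne1* were lower in AP1AR-DT OE mice and *Sun2* was higher by the thresholds for a differentially expressed gene (DEG), which were *P* under 0.05 and a log2 fold change (log2FC) beyond 0.32 in either direction. That is 3 of 9 genes, 2 lower and 1 higher. Of all genes tested 12.2% were DEGs, 7.15% lower and 5.1% higher, and without control 3 there were 1161 lower and 1269 higher DEGs. The groups did not overlap for 5 of the 9, of which 4 (*Syne1*, *Syne2*, *Tor1b* and *Tor1aip1*) were lower in AP1AR-DT OE mice and 1 (*Sun2*) was higher. Of all genes tested 22.4% had groups that did not overlap, 12% with AP1AR-DT OE mice lower and 10.4% with them higher. The median log2FC was −0.21 over the 9 genes, or −0.11 without control 3, and −0.01 over all genes tested. As the choice of genes used this contrast, nothing is read from these counts.

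**Figure D1:**
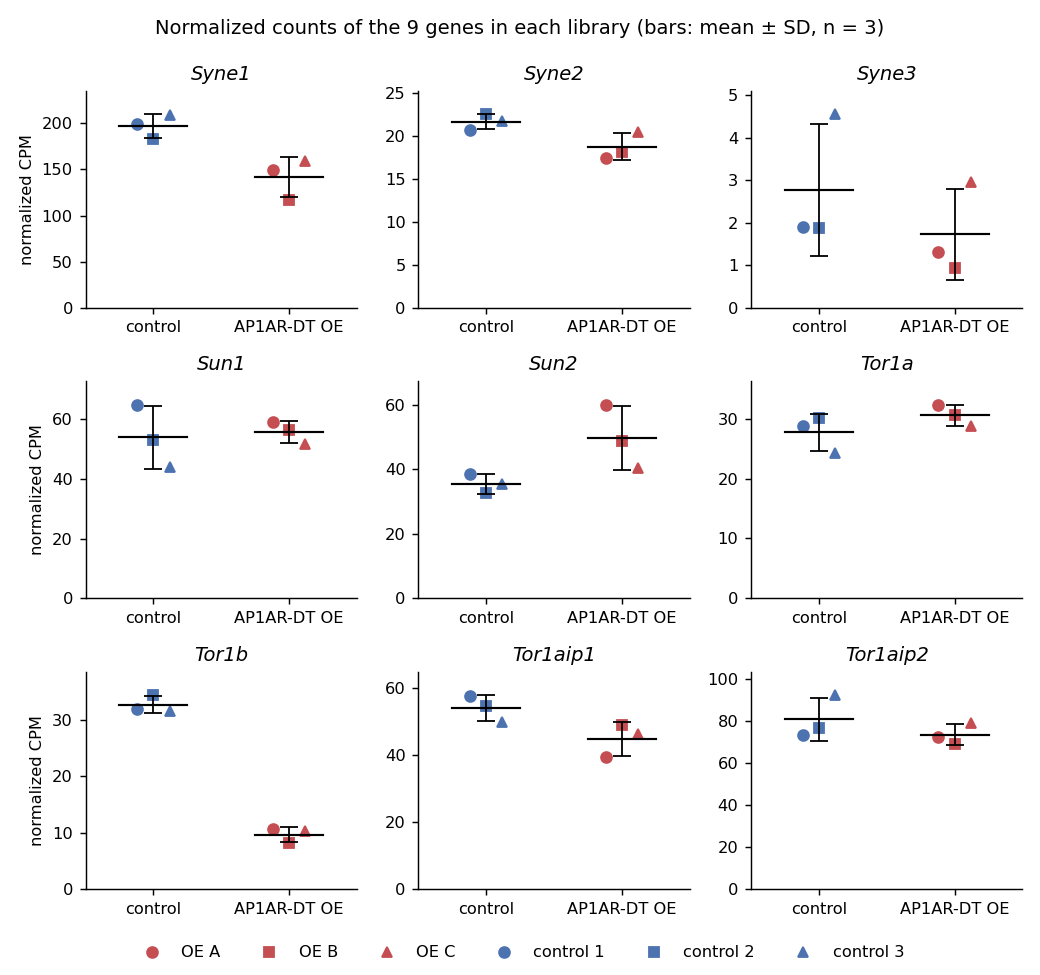
Normalized CPM of each gene (vertical axis, from 0) in the 3 control mice (blue) and the 3 AP1AR-DT OE mice (red), with the mean ± SD as bars; shapes tell libraries apart and do not pair mice. The 3 AP1AR-DT OE values of *Tor1b*, 8.09 to 10.6 CPM, lie far below the control values of 31.6 to 34.4 CPM, while *Sun1*, *Tor1a*, *Tor1aip2* and *Syne3* overlap between groups.

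*Tor1b* encodes torsinB, the close relative of the dystonia protein torsinA. Its levels were 31.9, 34.4 and 31.6 CPM in control mice 1, 2 and 3, and 10.6, 8.09 and 10.2 CPM in OE A, OE B and OE C. Every AP1AR-DT OE library lay below every control library, with a wide gap between groups that were each narrow, the highest value being 1.09-fold the lowest in control mice and 1.31-fold in AP1AR-DT OE mice. The mean went from 32.7 ± 1.55 to 9.62 ± 1.34 CPM (SD, n = 3), which is 3.39-fold lower, with a log2FC of −1.76 ± 0.137 (SE). These levels rest on 1299 to 1715 counts per control library and 436 to 560 counts per AP1AR-DT OE library. Over 14 other settings, which used other tools, scalings and filters, corrected for GC content or transcript length, or left out 1 mouse at a time, the log2FC of *Tor1b* ranged from −1.83 to −1.65. These settings reuse the 6 libraries on which *Tor1b* was selected. The GC content of its longest transcript, 50.51%, lies in a range where the median log2FC of 1402 genes with mean log2 CPM above 2 was 0.05.

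*Tor1a*, the neighbour and paralogue of *Tor1b*, did not share this difference. It had 28.8, 30.1 and 24.2 CPM in control mice and 32.3, 30.6 and 28.8 CPM in OE A, OE B and OE C. The groups overlapped, and the log2FC was 0.14 ± 0.118 (SE). After correction for GC content, which is 56.51% in the longest transcript of *Tor1a*, the log2FC was −0.03.

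The ratio of both torsin genes within a library needs no scaling between libraries. There were 1.11, 1.15 and 1.31 counts of *Tor1b* for each count of *Tor1a* in control mice 1, 2 and 3, and 0.327, 0.265 and 0.355 in OE A, OE B and OE C. The groups lay apart, with a mean of 1.19 ± 0.105 in control mice and 0.315 ± 0.0461 in AP1AR-DT OE mice (SD, n = 3). A ratio shows an unequal difference of both genes and not that either stayed the same.

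**Figure D2:**
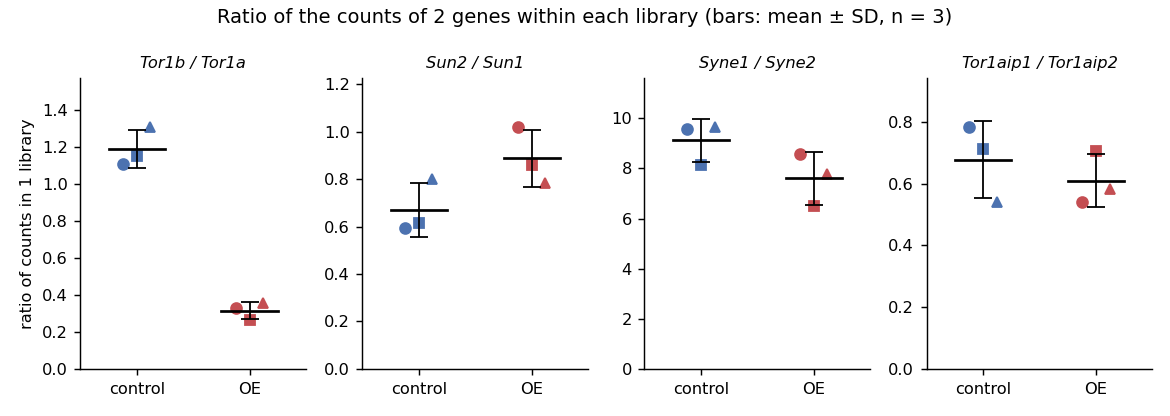
Ratio of the counts of 2 genes in the same library (vertical axis, from 0) in control mice (blue) and AP1AR-DT OE mice (red), with the mean ± SD as bars (n = 3). *Tor1b* to *Tor1a* fills 1.11 to 1.31 in control mice and 0.265 to 0.355 in AP1AR-DT OE mice, and the other 3 ratios overlap between groups.

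The cofactors of the torsins differed less. *Tor1aip1*, which encodes LAP1 of the inner nuclear membrane, had 57.6, 54.5 and 49.9 CPM in control mice and 39.3, 48.9 and 46.2 CPM in OE A, OE B and OE C. All 3 AP1AR-DT OE values were below the control values, though OE B lay close to control 3, and the log2FC was −0.27 ± 0.116 (SE). It did not reach the DEG thresholds with all mice and did with OE B left out, at a log2FC of −0.34. *Tor1aip2*, which encodes LULL1 of the endoplasmic reticulum, had 73.4, 76.8 and 92.5 CPM in control mice and 72.5, 69.2 and 79.4 CPM in AP1AR-DT OE mice. These groups overlapped, with a log2FC of −0.13 ± 0.117 (SE), and of −0.01 without control 3. The ratio of *Tor1aip1* to *Tor1aip2* was 0.784, 0.711 and 0.539 in control mice and 0.542, 0.707 and 0.582 in AP1AR-DT OE mice, and overlapped too.

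*Syne1* encodes nesprin-1, a giant spectrin-repeat protein whose loss in humans causes a cerebellar ataxia. It had 199, 183 and 209 CPM in control mice 1, 2 and 3, and 149, 117 and 159 CPM in OE A, OE B and OE C. All 3 AP1AR-DT OE libraries were below all 3 control libraries, and OE B was the lowest. The mean went from 197 ± 13.0 to 142 ± 21.7 CPM (SD, n = 3), 1.39-fold lower, with a log2FC of −0.47 ± 0.129 (SE) from 6331 to 10454 counts per library. Without OE B the log2FC was −0.35, and it stayed past the DEG thresholds.

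*Syne2* encodes nesprin-2, the other giant nesprin. Its levels were 20.7, 22.5 and 21.7 CPM in control mice and 17.4, 18.1 and 20.4 CPM in OE A, OE B and OE C. OE C lay just below control 1, so the groups were apart by a narrow margin, and the log2FC was −0.21 ± 0.113 (SE). It missed the DEG thresholds in all 14 other settings. The ratio of *Syne1* to *Syne2* counts was 9.57, 8.14 and 9.66 in control mice and 8.57, 6.49 and 7.77 in AP1AR-DT OE mice. OE A lay above control 2, so this ratio overlapped between groups.

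Length and GC content of a transcript moved with the difference between groups across the 14023 genes of known length with a mean log2 CPM above 2, and the giant nesprins lie at the far end in length. The median log2FC was 0.06 in the 1403 genes with the shortest transcripts and −0.14 in the 1403 genes with the longest. By GC content the span was wider, from −0.29 in the 1403 genes of lowest GC content to 0.25 in the 1403 of highest. Among the 20 longest of the 14023 genes, all of at least 18814 bases, the median was −0.22. Of these 20, 6 were DEGs lower in AP1AR-DT OE mice and 0 were higher. *Syne1* and *Syne2* are themselves among the 20, and *Syne1* is among the 6, so this group is not independent of them. After correction for transcript length the log2FC of *Syne1* was −0.25, short of the DEG thresholds and with groups that overlapped, and that of *Syne2* was 0.0019. After correction for GC content *Syne1* had a log2FC of −0.51 and *Syne2* of −0.23. The part of transcript length in the difference of *Syne1* was not tested beyond this correction.

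**Figure D3:**
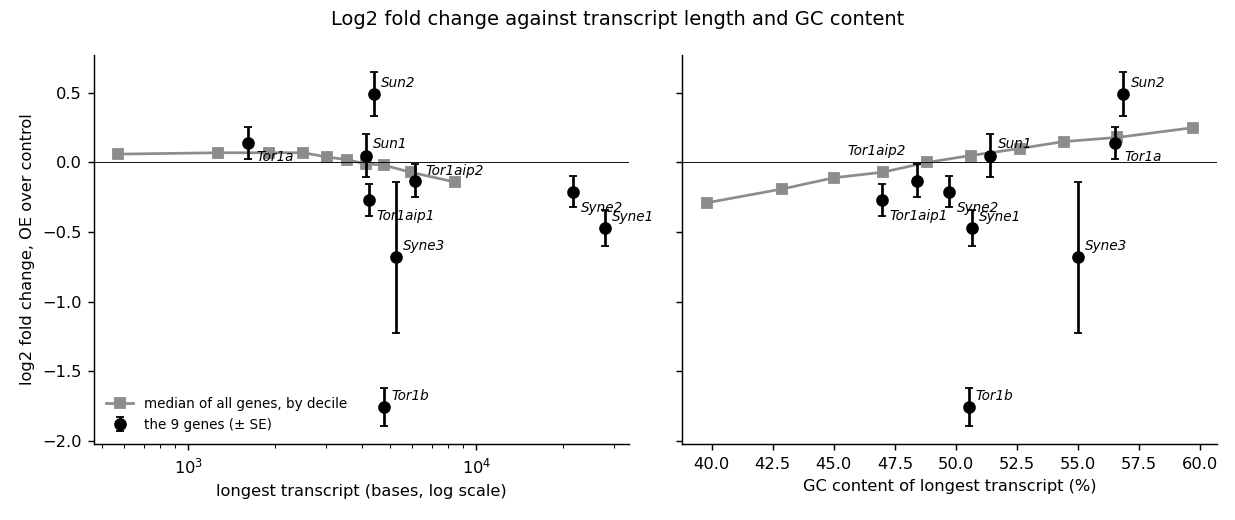
Log2FC of the 9 genes (black, ± SE) against the length of the longest transcript in bases (left, log scale) and its GC content in percent (right), with the median log2FC of successive groups of 1402 or 1403 genes with mean log2 CPM above 2, ordered by that property (grey). *Syne1* and *Syne2* lie far to the right within the group of longest genes, whose median log2FC is −0.14, while *Tor1b* lies far below the grey line in both panels.

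*Syne3*, the nesprin that binds plectin and so reaches intermediate filaments, was too low and too variable to compare. It had 77, 93 and 228 counts in control mice, which are 1.89, 1.87 and 4.56 CPM, and 70, 50 and 155 counts in OE A, OE B and OE C, which are 1.32, 0.927 and 2.95 CPM. Control 3 and OE C were each high within their group, and the groups overlapped. The log2FC was −0.68 ± 0.543 (SE), and it was −0.11 without control 3 and −1.29 without OE C, where *Syne3* passed the DEG thresholds. Control 3 was also the library with the highest summed level of the choroid plexus markers, given above, and of the 6 ependyma markers, at 118 CPM. The ependyma markers summed to 61.4 and 87.5 CPM in controls 1 and 2, and to 38.5, 57.3 and 73.5 CPM in OE A, OE B and OE C. The part of these cells in the level of *Syne3* was not tested.

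*Sun2* was the 1 gene of the 9 that was higher in AP1AR-DT OE mice past the DEG thresholds. It had 38.5, 32.5 and 35.3 CPM in control mice, and 60.0, 48.7 and 40.4 CPM in OE A, OE B and OE C. The groups did not overlap, although OE C lay close to control 1 and OE A far above it. The mean went from 35.4 ± 2.99 to 49.7 ± 9.83 CPM (SD, n = 3), 1.4-fold higher, with a log2FC of 0.49 ± 0.158 (SE). Without OE A the log2FC was 0.33 and without control 2 it was 0.44, and in both cases *Sun2* no longer passed the DEG thresholds. The longest transcript of *Sun2* has the highest GC content of the 9, at 56.85%. It has 4413 bases and is not the longest protein-coding transcript, which has 3804. The 1402 genes with a GC content of 55.43% to 57.87% and a mean log2 CPM above 2 had a median log2FC of 0.18. After correction for GC content the log2FC was 0.31, short of the thresholds and with groups that overlapped. The summed level of 6 microglia markers was also highest in OE A, with 390 CPM against 326 and 281 CPM in OE B and OE C and 282, 275 and 331 CPM in control mice. Control 3 thus lay above OE B and OE C in these markers. The 7 striatum genes were highest in OE A too, at 1810 CPM against 231 to 980 CPM in the other libraries. The part of microglia or of striatal tissue in the level of *Sun2* was not tested.

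*Sun1*, the other SUN protein of somatic cells, had 65.0, 53.0 and 44.0 CPM in control mice and 59.0, 56.6 and 51.7 CPM in AP1AR-DT OE mice. The AP1AR-DT OE values fell inside the range of the control values, and the log2FC was 0.05 ± 0.151 (SE). *Sun2* to *Sun1* counts stood in a ratio of 0.592, 0.614 and 0.801 in control mice and of 1.02, 0.861 and 0.783 in OE A, OE B and OE C. OE C lay below control 3, so the balance of both SUN genes overlapped between groups.

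**Figure D4:**
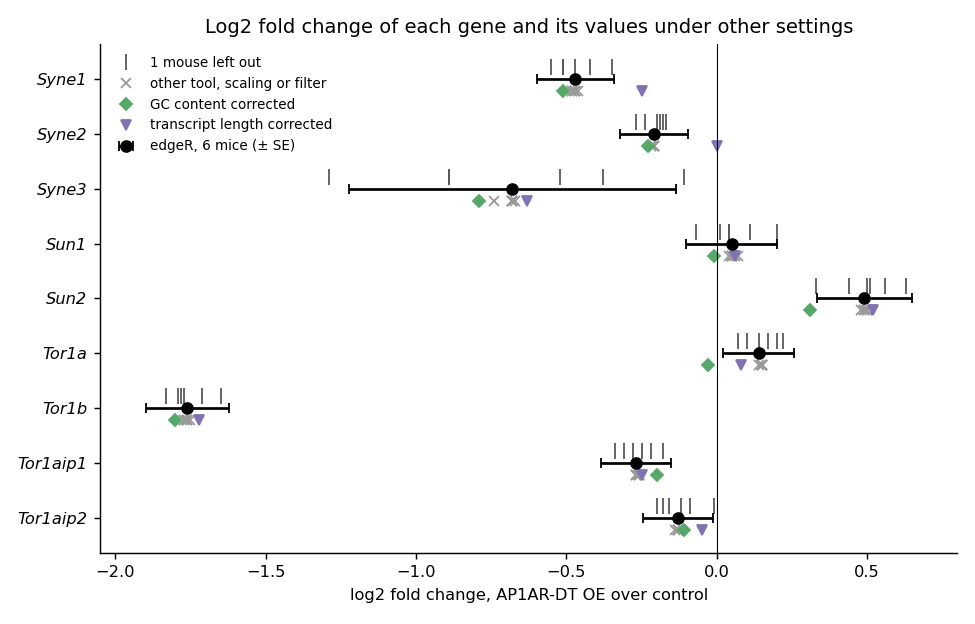
Log2FC of each gene, AP1AR-DT OE over control (horizontal axis), with its SE from edgeR on 6 mice (black) and its value under 14 other settings (ticks, crosses, diamonds and triangles as in the key). *Tor1b* stays between −1.83 and −1.65, *Syne3* spreads from −1.29 to −0.11, and *Syne2* moves to 0.0019 with the correction for transcript length.

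The promoters of *Syne1* and *Sun2*, which were DEGs in opposite directions, are shown as the 250 bases upstream of the RefSeq start on GRCm38.p6. Of the 9 genes, 8 matched the RefSeq promoter table, all but *Tor1b*. The stretches lie on the minus strand at 10:5550693-5550942 for the most upstream RefSeq start of *Syne1* and at 15:79742537-79742786 for *Sun2*. The *Syne1* window lies inside the gene as annotated by GENCODE, which reaches 10:5551482. That of *Sun2* lies just outside its gene, which reaches 15:79742536, so the windows differ in position. Capitals mark GC boxes (GGGCGG) and CCAAT boxes (CCAAT), searched on both strands, and a run of capitals in *Sun2* can hold motifs that touch or overlap.
Syne1: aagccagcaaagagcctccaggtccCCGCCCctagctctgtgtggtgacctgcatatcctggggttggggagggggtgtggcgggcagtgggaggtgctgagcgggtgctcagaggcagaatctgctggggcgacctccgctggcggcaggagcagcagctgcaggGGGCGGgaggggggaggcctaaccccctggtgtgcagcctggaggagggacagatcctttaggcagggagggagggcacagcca
Sun2: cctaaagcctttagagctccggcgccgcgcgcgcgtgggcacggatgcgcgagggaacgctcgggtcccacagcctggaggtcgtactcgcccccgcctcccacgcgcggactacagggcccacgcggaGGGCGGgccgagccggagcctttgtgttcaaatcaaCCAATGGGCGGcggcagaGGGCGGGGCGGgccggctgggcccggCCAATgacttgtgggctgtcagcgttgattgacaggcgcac
The *Sun2* stretch held 4 GC boxes, 2 CCAAT boxes and 31 CpG dinucleotides, and that of *Syne1* held 2 GC boxes, 0 CCAAT boxes and 7 CpG. *Sun1*, which was no DEG, held 3 GC boxes, 2 CCAAT boxes and 30 CpG at its most upstream start. *Syne2*, also no DEG, held 3 GC boxes, 0 CCAAT boxes and 26 CpG. The other RefSeq starts of *Syne1* held 0 GC boxes. Among all 32851 promoters listed, 32.74% held a GC box and 33.85% a CCAAT box, and the median CpG count was 6. These matches describe the letters of the window and say nothing of what binds there.

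The genes whose levels followed those of *Syne1* and *Tor1b* most closely over the 6 libraries were found among 14029 genes by Pearson's r of log2 CPM, as a description. For *Tor1b* they were *Pum2* (r = 0.9965), *Kmt5b* (r = 0.9959) and *Myt1l* (r = 0.9936), of which *Pum2* encodes an RNA-binding repressor, *Kmt5b* a histone H4 methyltransferase and *Myt1l* a neuronal zinc finger factor. *Myt1l* had 130, 119 and 122 CPM in control mice and 53.5, 41.1 and 54.9 CPM in OE A, OE B and OE C, a log2FC of −1.31, and the log2FC of *Pum2* and *Kmt5b* were −0.30 and −0.32. For *Syne1* they were *Gm18305* (r = 0.9977), *Gm7887* (r = 0.9935) and *Nrd1* (r = 0.9934), with a log2FC of −0.55, −0.55 and −0.42. *Nrd1* encodes the protease nardilysin. An r above 0.95 was reached by 151 genes for *Syne1* and 122 for *Tor1b*, and all of these values share the same 6 libraries and the same 2 groups.

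Genes that work with the 9 were taken from lists of related genes, chosen with earlier results of these data known, and 95 of the 97 listed were tested. Of these 5 were DEGs higher in AP1AR-DT OE mice, 5 were lower and 85 were neither, which is 10.5% beside the 12.2% of all genes tested. The groups did not overlap for 28 of the 95, which is 29.5% beside the 22.4% of all genes tested. By edgeR's quasi-likelihood test 0 of the 95 had an adjusted *P* under 0.05 and 18 had an unadjusted *P* under 0.05. DESeq2 gave 3 with an adjusted *P* under 0.05 and limma-voom 0. With OE B left out the number of DEGs in the lists was 7, and with OE C left out it was 14.

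Of the other LINC complex genes, 4 of 6 were tested and 0 were DEGs, and the testis genes *Sun3* and *Sun5* had 0 counts in all 6 libraries. The remaining torsins *Tor2a*, *Tor3a* and *Tor4a* gave 0 DEGs of 3, with a log2FC from −0.14 to 0.37. *Tor2a*, the highest of them, had 25.1, 19.4 and 19.4 CPM in control mice and 32.4, 29.6 and 20.2 CPM in AP1AR-DT OE mice, which overlap. Of 10 genes of nuclear envelope remodelling and lipid control 0 were DEGs.

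In the list of lamina and inner nuclear membrane genes 2 of 18 were DEGs, both higher. *Lemd2*, an inner membrane protein with a LEM domain, went from 35.4, 37.5 and 38.1 CPM to 48.8, 47.7 and 45.3 CPM, a log2FC of 0.35 ± 0.0894 (SE; edgeR adjusted *P* = 0.295). *Rce1*, the protease that trims prenylated proteins such as prelamin A, had a log2FC of 0.45 ± 0.175 (SE; edgeR adjusted *P* = 0.312). *Rce1* passed the thresholds in 7 of 14 other settings, and missed them without any 1 of the control mice, OE A or OE B, at a log2FC of 0.29 to 0.48. After correction for GC content *Lemd2* had a log2FC of 0.17 and *Rce1* of 0.26, neither past the thresholds. *Lmna*, which encodes lamins A and C, had 31.9, 36.1 and 37.1 CPM in control mice and 38.5, 42.1 and 42.1 CPM in AP1AR-DT OE mice. Its groups did not overlap, but with a log2FC of 0.22 (edgeR adjusted *P* = 0.352) it was no DEG. *Emd*, which encodes emerin, had a log2FC of 0.17 (edgeR adjusted *P* = 0.506) and its groups overlapped.

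The nuclear pore list had 4 DEGs of 30, 3 of them lower. *Tpr*, which forms filaments of the nuclear basket, went from 43.6, 44.2 and 43.1 CPM to 25.2, 23.8 and 34.7 CPM, a log2FC of −0.65 ± 0.155 (SE; edgeR adjusted *P* = 0.295). *Ranbp2*, of the cytoplasmic filaments, went from 79.3, 84.7 and 84.1 CPM to 53.8, 48.1 and 72.3 CPM, a log2FC of −0.51 ± 0.156 (SE; edgeR adjusted *P* = 0.295). In both genes OE C was the AP1AR-DT OE library closest to the control mice. *Nup54*, of the central channel, had a log2FC of −0.43 ± 0.175 (SE; edgeR adjusted *P* = 0.319) and passed the thresholds in 7 of 14 other settings. *Nup54* missed them without control 2, control 3 or any 1 of the AP1AR-DT OE mice, at a log2FC of −0.48 to −0.35. *Tpr* passed the thresholds in all 14 other settings, and *Ranbp2* had a log2FC of −0.26 after correction for GC content, short of them. *Nupl1*, another nucleoporin of the central channel, was a DEG by its thresholds with a log2FC of 5.78 (edgeR adjusted *P* = 0.295), but OE C had 0 CPM beside 8.5 and 8.94 CPM in OE A and OE B and 0.27, 0.0201 and 0.04 CPM in control mice. The groups of *Nupl1* thus overlapped, limma-voom did not call it, and it missed the thresholds without control 2 (log2FC of 5.28).

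The cytoskeletal partners of the LINC complex had 4 DEGs of 18, with 2 in each direction. *Plec*, which encodes plectin, the partner of nesprin-3, went from 133, 131 and 136 CPM to 193, 200 and 170 CPM, a log2FC of 0.49 ± 0.0908 (SE; edgeR adjusted *P* = 0.295). *Kif5b*, a heavy chain of the kinesin motor that nesprins recruit, went from 204, 239 and 271 CPM to 157, 135 and 176 CPM, a log2FC of −0.61 ± 0.142 (SE; edgeR adjusted *P* = 0.295). *Klc2*, a kinesin light chain, had a log2FC of 0.37 ± 0.111 (SE; edgeR adjusted *P* = 0.295). *Pafah1b1*, which encodes the dynein regulator LIS1, had a log2FC of −0.33 ± 0.133 (SE; edgeR adjusted *P* = 0.316), its groups overlapped, and it passed the thresholds in 7 of 14 other settings. *Pafah1b1* missed them without control 2, control 3, OE A or OE B, at a log2FC of −0.33 to −0.21, and *Klc2* missed them without OE B, at 0.27. After correction for GC content the log2FC of *Plec* was 0.22, of *Klc2* 0.12 and of *Pafah1b1* −0.07, none of them past the thresholds, while that of *Kif5b* stayed past them.

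Of 12 other genes of inherited dystonia 0 were DEGs. *Thap1*, a transcription factor gene of this list, had 9.61, 10.4 and 11.8 CPM in control mice and 8.96, 9.68 and 9.03 CPM in AP1AR-DT OE mice, a log2FC of −0.20 (edgeR adjusted *P* = 0.499) with groups that overlapped.

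**Figure D5:**
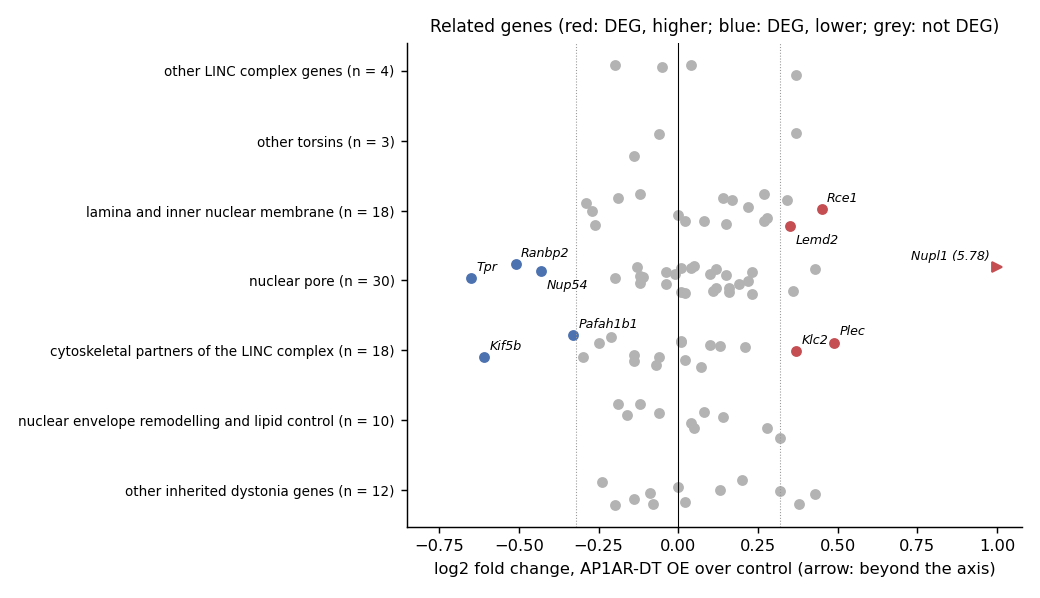
Log2FC of the 95 related genes (horizontal axis, AP1AR-DT OE over control) by list, with 1 point a gene, red for DEGs that were higher, blue for DEGs that were lower and grey for the rest; dotted lines mark 0.32 in either direction, the vertical scatter within a list has no meaning, and *Nupl1* lies beyond the axis. DEGs appear in 3 of the 7 lists, and the other torsins, the other LINC genes and the dystonia genes have 0.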

How the data were processed

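RNA was extracted with TRIzol and libraries were made with an Illumina TruSeq RNA kit. Per the study's methods the authors mapped reads to GRCm38 with Bowtie2, which does not split reads at introns, and took gene counts from StringTie with the GENCODE annotation. GEO's processing notes name TopHat2 2.0.4, HTSeq, Cuffdiff, edgeR 2.6.12 and mm9 instead, and these sources disagree. The deposited counts themselves carry the names of Bowtie2, StringTie and DESeq2, the tools in the study's methods. The authors deposited whole-number counts without normalization. Their DESeq2 means, fold changes and *P*-values stand in the same table and were not used. Coordinates, lengths and GC content come from GENCODE vM21 on GRCm38. GC content and the corrections for GC content or length use the longest transcript of any type. For *Sun2*, *Tor1a* and *Tor1b* this is not a transcript annotated as protein-coding.

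Groups follow the labels. Counts were tested in R 4.3.3 with edgeR 4.0.16 (filterByExpr, TMM, quasi-likelihood F-test, two-sided, Benjamini-Hochberg over 21844 genes). Total counts were 42061721 to 54668294 per library. Precision is given by the SE of the log2FC, with 3 mice per group. It is the absolute log2FC divided by the square root of the F statistic, whose dispersions draw on all genes tested. The model was checked on simulated data. Alternatives were DESeq2 1.42.0, limma-voom (limma 3.58.1), DESeq2 size factors, library totals, no filter, at least 10 counts in every mouse, spline corrections for GC content or length, and leaving out each mouse. Related genes named are the DEGs of each list, at most the 4 of smallest *P*, with *Lmna*, *Emd* and *Thap1*. Genes alike to *Syne1* and *Tor1b* are the 3 of highest r with mean log2 CPM above 2. The members, lists and rules were chosen with earlier results of these data known.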

Additional observations from a re-analysis of the deposited data

How the results depend on the processing

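The counts of DEGs and of genes without overlap among the 9, their median, and the log2FC of the 9 genes and of the 13 related genes named were recomputed under 14 alternatives, and other values were not. The number of DEGs over all genes, 2675, was 1569 after correction for GC content and ranged from 1430 to 3508 with 1 mouse left out (1620 without OE A and 1430 without OE B). Lower DEGs outnumbered higher ones, 1562 to 1113, but without control 3 there were 1161 lower and 1269 higher. DEGs in the lists of related genes numbered 6 after correction for GC content, against 10. Of the 9 genes, groups without overlap numbered 3 after correction for GC content and 2 after correction for transcript length, against 5, and the median log2FC was −0.05 after the length correction, against −0.21 (−0.11 without control 3). The number of DEGs among the 9 was 2 to 4 over all alternatives, against 3. *Sun1* changed sign in 2 of 14 alternatives, and *Tor1a* and *Syne2* in 1 each. The causes of these shifts were not tested. *Nupl1* could be fitted under 13 alternatives, since it fails a minimum of 10 counts in every mouse. No paired analysis was made, since the labels name no pairs of control and AP1AR-DT OE mice. *Syne3* rests on 50 to 228 counts per library, and its SD within groups was 0.80 on the log2 scale. edgeR gave 6 genes with an adjusted *P* under 0.05 over all 21844, limma-voom 4 and DESeq2 450.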
